A study of Mus musculus with 23 samples.

Results

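The 37 genes described here are markers of proliferation. They were chosen by name, as genes whose RNA is known to rise in S phase (the stretch of the cell cycle in which DNA is copied) or in mitosis (in which the copies are parted), with the cyclins of the G1 to S step. All 37 were among the 18512 gene symbols of the count files, and 32 had enough counts to be tested, of 12195 symbols tested in all. By role, 23 were mitosis genes and 14 were S phase and G1 genes. The RNA came from the head of the pancreas of C57BL/6 mice of 6 to 8 weeks and 20 to 25 g. Baseline mice (BL, not injured) numbered 8, with 4 of each sex, day 7 mice (d7) 8, with 4 of each sex, and day 14 mice (d14) 7, with 3 females and 4 males. Injury was caused by caerulein, a peptide that overstimulates the acinar cells which make digestive enzymes, at 50 µg/kg in 8 hourly injections on each of 2 days. Days were counted from 24 h after the last injection, which the study set as day 0, and the labels name no other agent or allele for any group.

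A cell that enters the cycle first raises D-type cyclins, which with their kinases free the E2F factors. E2F factors then turn on the genes for DNA replication: the Mcm2-7 ring that unwinds DNA, the PCNA clamp that holds polymerases on it, and the enzymes that make deoxynucleotides. Later, in G2 and mitosis, a second set is turned on that holds cyclin B and Cdk1, the spindle motors and the checkpoint kinases. It also holds an enzyme and an activator that work with the anaphase-promoting complex, the ligase that ends mitosis. In adult pancreas most acinar cells rest outside the cycle and can re-enter it after injury. Immune and stromal cells of the tissue can divide as well. In bulk tissue a change in the number of cycling cells and a change in RNA per cell cannot be told apart.

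Libraries held 7059890 to 9567446 counts, so that 3 counts were between 3.14e-05 and 4.25e-05% of a library. Levels are given as CPM, counts scaled to a common library size with the trimmed mean of M values (TMM), whose factors ran from 0.770 to 1.003 at baseline, 1.05 to 1.40 on day 7 and 0.934 to 1.03 on day 14. All 23 mice matched their labelled sex, and the 11 acinar markers had counts in every mouse. In 4 mice (mouse 5 at baseline, 10 and 15 on day 7, and 21 on day 14) the 10 markers of T and B lymphocytes summed to 538 to 1597 counts, against 1 to 185 in the other 19. Results are therefore given with and without these 4 lymphocyte-rich mice. Most of the mitosis genes were scarce: over the 23 mice the median count of a tested mitosis gene ran from 7 to 193, and it was under 50 for 17 of 19. A gene was called differentially expressed (a DEG) where the adjusted *p* (Benjamini-Hochberg over the 12195 genes) of edgeR's quasi-likelihood test, with sex as a covariate, was at most 0.05 and the fold change at least 1.5.

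On day 7, 3 of the 32 tested members were DEGs and all of them rose: *Ube2c*, *Ccnb1* and *Top2a*, each a mitosis gene. Among all genes tested 5.13% were DEGs and 3.82% were DEGs that rose. The log2 fold change was positive for each of the 19 tested mitosis genes, with a median of 0.67. Among all genes 53.7% were positive and the median was 0.02. The 19 genes were measured in the same mice, so that they are not independent observations. Averaged over these genes, log2 CPM had a mean of 0.95 (SD 0.61 between mice) at baseline and 1.59 (SD 0.64) on day 7. The median log2 fold change of the mitosis genes fell to 0.22 in females, with 15 of 20 positive. It fell to 0.23 with the mapping rate as a covariate, with 14 of 19 positive. For the 10 S phase genes the median was -0.01 and 5 of 10 were positive. Under total count scaling, which moved the median of all genes to 0.47, 10 of 10 were positive. Relative to the median of all genes, the S phase median was -0.03 under TMM and -0.01 under total count scaling. The 3 calls were not stable: none was left without mouse 1, 2, 7, 8, 10, 14 or 15, and 6 members were DEGs without mouse 4 or 12. At baseline, day 7 and day 14 the median counts were 4, 18 and 5 for *Ube2c* and 5.5, 18 and 8 for *Ccnb1*. Both thus had enough counts to be tested mainly through the day 7 mice, where they were high. Without the day 7 mice only 13 mitosis genes could be tested. With no filter but 1 count in any mouse, 23 of 23 mitosis genes were positive on day 7 (median 0.59), and no member was a DEG. In the main fit no member was a DEG on day 14 against baseline, or on day 14 against day 7.

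**Figure D1:**
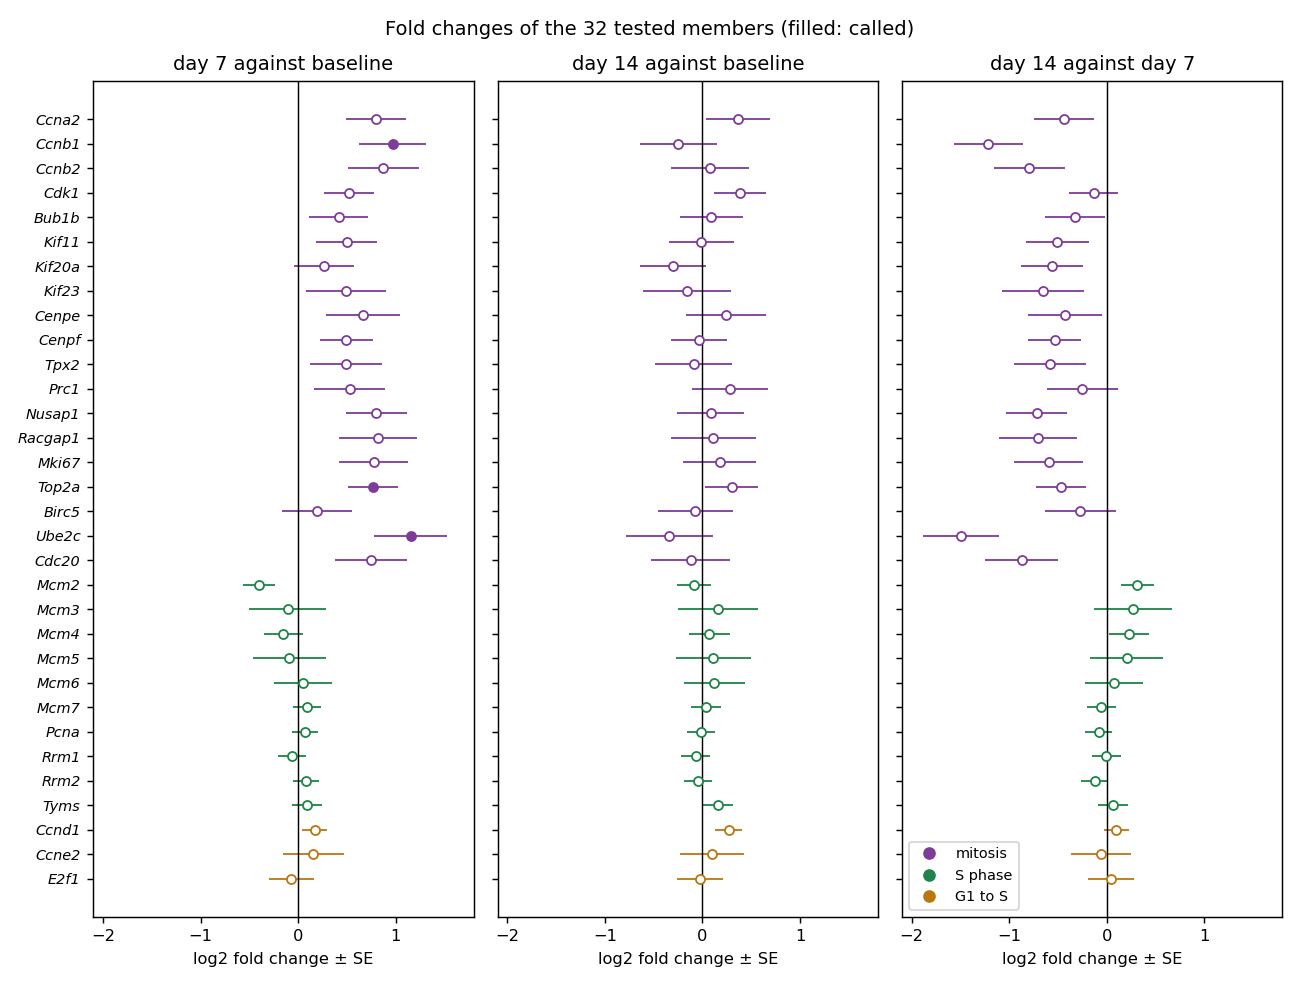
Log2 fold change with its standard error for the 32 tested members, in order of role, in the 3 comparisons of time points (horizontal axis log2, filled points are DEGs). The 19 mitosis genes sit right of 0 on day 7 with a median of 0.67, the S phase genes lie around 0, and the mitosis genes sit left of 0 for day 14 against day 7 with a median of -0.56.

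The stretches before the start of 4 mitosis genes are shown: *Ube2c* and *Top2a* rose on day 7, and *Cdk1* and *Mki67* are the kinase and the stain by which mitosis and cycling are best known. They share short words, which *Ccnb1*, the other DEG, does not share in full. The word TTTGAA, described below, is named after cell cycle genes, so its matches in members chosen as such genes are no independent result. Of the 37 members, 30 matched a promoter (250 bases before to 50 after the start) in RefSeq, build GRCm38.p6; *Ccna2*, *Aurkb*, *Kif20a*, *Tpx2*, *Mcm4*, *Ccnd1* and *Ccne2* did not match. Printed 5′ to 3′ on the gene's own strand are bases 250 to 6 before the RefSeq start, 245 bases each. By the GENCODE positions given with each gene, which begin further upstream for *Ube2c* and *Cdk1*, the last 26 and 21 of these bases lie inside the gene, the last CHR match of each included. Capitals mark TTTGAA (the core of the cell cycle genes homology region, CHR) and CCAAT, on either strand, and the E2F words named further on.
*Ube2c* (chr2:164769679-164769923, plus strand): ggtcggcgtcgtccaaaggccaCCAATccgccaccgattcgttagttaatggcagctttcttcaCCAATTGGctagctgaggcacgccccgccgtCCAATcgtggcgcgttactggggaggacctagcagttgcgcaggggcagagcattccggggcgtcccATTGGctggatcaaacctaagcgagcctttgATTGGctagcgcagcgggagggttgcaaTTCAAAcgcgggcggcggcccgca
*Top2a* (chr11:99024195-99024439, minus strand): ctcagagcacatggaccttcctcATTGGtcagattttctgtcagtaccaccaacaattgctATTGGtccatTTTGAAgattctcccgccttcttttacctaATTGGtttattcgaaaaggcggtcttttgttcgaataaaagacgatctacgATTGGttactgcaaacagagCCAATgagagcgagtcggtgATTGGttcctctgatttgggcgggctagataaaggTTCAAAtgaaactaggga
*Cdk1* (chr10:69352918-69353162, minus strand): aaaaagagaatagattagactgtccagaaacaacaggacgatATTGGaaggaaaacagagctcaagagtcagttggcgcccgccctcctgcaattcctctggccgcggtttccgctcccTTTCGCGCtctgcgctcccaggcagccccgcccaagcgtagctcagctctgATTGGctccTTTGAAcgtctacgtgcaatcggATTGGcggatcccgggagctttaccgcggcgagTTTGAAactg
*Mki67* (chr7:135716385-135716629, minus strand): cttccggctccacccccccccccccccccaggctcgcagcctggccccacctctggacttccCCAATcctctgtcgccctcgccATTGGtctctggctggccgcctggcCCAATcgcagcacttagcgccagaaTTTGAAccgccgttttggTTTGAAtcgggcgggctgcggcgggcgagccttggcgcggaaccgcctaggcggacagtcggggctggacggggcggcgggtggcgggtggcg

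In the whole 300-base window TTTGAA was found, on either strand, for 14 of 19 mitosis genes with a promoter (73.7%), for 1 of 11 S phase and G1 genes (9.09%, *Mcm2*) and for 20.2% of all 27025 symbols with a promoter. CCAAT was found for 17 of 19 mitosis genes (89.5%), 8 of 11 S phase and G1 genes (72.7%) and 41.1% of all symbols. Both words stood together for the same 14 mitosis genes and for 8.97% of all symbols. Matches to CCAAT and TTTGAA can share no more than 1 end base. *Ccnb1*, *Bub1*, *Cenpe*, *Nusap1* and *Birc5* had a promoter without TTTGAA in it. These are matches of letters and say nothing of binding.

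*Ube2c* encodes the ubiquitin-conjugating enzyme that works with the anaphase-promoting complex and lies on chr2:164769898-164778822 (GRCm38, plus strand). The lowest, median and highest levels were 0, 0.675 and 1.36 CPM at baseline, 0.415, 1.87 and 2.33 CPM on day 7, and 0.106, 0.551 and 1.01 CPM on day 14. On day 7, 6 of 8 mice stood above every baseline mouse, while mouse 12, the lowest, lay within the baseline range. These are small numbers of reads, from 0 to 11 counts at baseline and from 4 to 25 on day 7. *Ube2c* rose by a log2 fold change of 1.15 ± 0.38 (SE; 8 against 8 mice, edgeR adjusted *p* = 0.0325). Without the 4 lymphocyte-rich mice the value was 1.07 and no longer a DEG (edgeR adjusted *p* = 0.0821).

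*Ccnb1* encodes cyclin B1, which switches on Cdk1 at the entry to mitosis, and lies on chr13:100778650-100786570 (minus strand). Its lowest, median and highest levels were 0.289, 0.868 and 1.85 CPM at baseline, 0.556, 1.78 and 3.41 CPM on day 7, and 0.319, 0.882 and 1.25 CPM on day 14. Of the day 7 mice 4 of 8 exceeded every baseline mouse, and mice 11 and 12 lay below the baseline median. The log2 fold change on day 7 was 0.97 ± 0.35 (SE), with an edgeR adjusted *p* of 0.0499 that lay just inside the threshold. DESeq2 gave 0.97 with an adjusted *p* of 0.0587 and so made no DEG of it. A pseudogene named *Ccnb1-ps* is annotated, and reads that the copies share may not have been counted.

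*Top2a* encodes topoisomerase II alpha, which untangles the copied chromosomes, and lies on chr11:98992943-99024189 (minus strand). The lowest, median and highest levels were 5.39, 8.64 and 18.3 CPM at baseline, 9.44, 16.4 and 24.6 CPM on day 7, and 6.80, 12.3 and 16.1 CPM on day 14. Although the medians were far apart, only 2 of 8 day 7 mice (10 and 14) exceeded mouse 4, the highest at baseline. *Top2a* rose by a log2 fold change of 0.77 ± 0.26 on day 7 (SE, edgeR adjusted *p* = 0.0418). The value was 0.64 without the lymphocyte-rich mice (edgeR adjusted *p* = 0.186).

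*Mki67* encodes the Ki-67 protein that coats chromosomes in mitosis, the usual stain for cycling cells, and lies on chr7:135689784-135716361 (minus strand). It had the highest counts of the mitosis genes, from 47 to 648 per mouse. Baseline levels were 8.17 (lowest), 12.9 (median) and 33.4 (highest) CPM, day 7 levels were 9.13, 33.5 and 56.7 CPM, and day 14 levels were 8.28, 22.3 and 27.3 CPM. In 5 of 8 day 7 mice *Mki67* exceeded every baseline mouse, while mice 11 and 12 lay at or below the baseline median. The log2 fold change of 0.78 ± 0.35 (SE) on day 7 was of the same size as that of *Top2a*, but with this spread between mice it did not pass (edgeR adjusted *p* = 0.135). By comparison *Pcna*, whose baseline median was close to that of *Mki67*, ranged only from 9.96 to 12.9 CPM among the baseline mice.

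*Cdk1*, the kinase that drives mitosis, lies on chr10:69335146-69352938 (minus strand). It was measured at 0.766, 1.34 and 2.71 CPM (lowest, median, highest) at baseline, 1.25, 2.16 and 3.73 CPM on day 7 and 1.17, 2.10 and 3.02 CPM on day 14. The 3 groups overlapped widely, with 3 of 8 day 7 mice and 1 of 7 day 14 mice above the baseline range. Its log2 fold change was 0.52 ± 0.26 on day 7 and 0.39 ± 0.27 on day 14 (SE, edgeR adjusted *p* = 0.159 and 0.586).

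**Figure D2:**
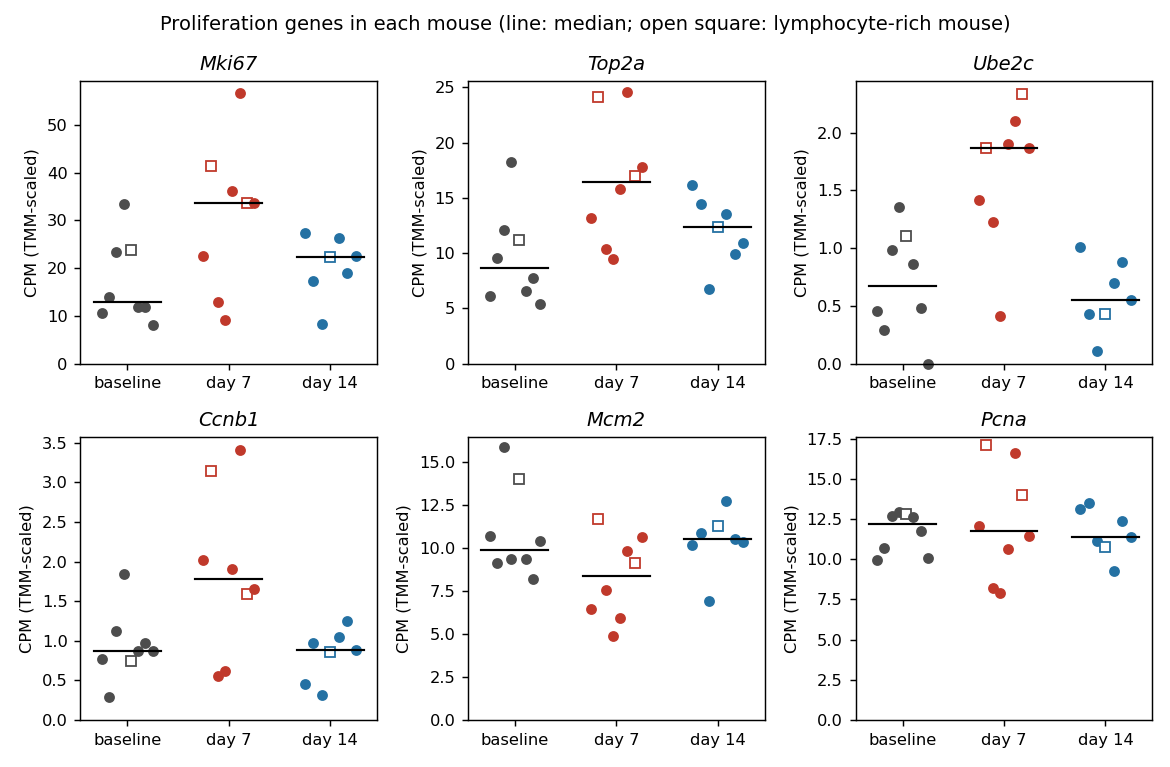
TMM-scaled CPM (vertical axis, linear, from 0) of 6 members in each mouse, ordered by mouse number within baseline, day 7 and day 14; the line is the median and open squares are the 4 lymphocyte-rich mice. For *Ube2c* 6 of 8 day 7 mice lie above every baseline mouse, for *Mki67* 5 of 8, and for *Mcm2* none.

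The cyclins and Cdk1 had the median day 7 log2 fold change of 0.84 over 4 genes, with 1 DEG. Cyclin A2 (*Ccna2*), which acts in both S phase and mitosis, had 0.80 ± 0.31, and cyclin B2 (*Ccnb2*) 0.87 ± 0.36 (SE, edgeR adjusted *p* = 0.0717 and 0.0917). *Ccna2* was a DEG by DESeq2 and not by edgeR. Of the checkpoint and mitotic kinases only *Bub1b* was tested, with 0.41 ± 0.30. *Bub1*, *Aurka*, *Aurkb* and *Plk1* had too few counts: the highest median count over the mice among the 5 members that were not tested was 6. Fitted without the filter these 4 had log2 fold changes of 0.59, 0.67, 0.25 and 0.10 on day 7, with edgeR adjusted *p* from 0.231 to 0.922.

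The 9 spindle, kinetochore and cytokinesis genes ran from 0.27 (*Kif20a*, a kinesin of cytokinesis) to 0.82 (*Racgap1*, which acts at the cleavage furrow) with a median of 0.50, and held no DEG. *Nusap1*, which binds spindle microtubules, came nearest, with 0.80 ± 0.31 (SE, edgeR adjusted *p* = 0.0742) and with 4 of 8 day 7 mice above every baseline mouse. The motor *Kif11*, the centromere proteins *Cenpe* and *Cenpf*, and the spindle factors *Tpx2*, *Prc1* and *Kif23* lay between 0.49 and 0.67. *Birc5* (survivin), the passenger protein of the centromere, had the lowest value of the 19 tested mitosis genes, 0.20 ± 0.36. *Cdc20*, which activates the anaphase-promoting complex, had 0.75 ± 0.37 (SE, edgeR adjusted *p* = 0.161). In all, 7 of 32 members had an unadjusted *p* under 0.05 with a higher level on day 7, against 16.5% of all genes. An adjusted *p* of at most 0.05 with a higher level was reached by 3 of 32 members, a share near the 8.86% of all genes.

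The S phase genes differed from the mitosis genes in their day 7 values. The promoters of *Mcm5* and *Mcm6*, which encode parts of the replicative helicase, are shown for comparison with the 4 above. GENCODE places the start of both genes further downstream than RefSeq, at 75109569 for *Mcm5* and 128359664 for *Mcm6*. Capitals mark CCAAT and the E2F words TTTGGCGC, TTTCGCGC and TTTCCCGC on either strand, of which the first and the second can overlap each other on opposite strands, as one pair does in *Mcm5* and one in *Mcm6*.
*Mcm5* (chr8:75109259-75109503, plus strand): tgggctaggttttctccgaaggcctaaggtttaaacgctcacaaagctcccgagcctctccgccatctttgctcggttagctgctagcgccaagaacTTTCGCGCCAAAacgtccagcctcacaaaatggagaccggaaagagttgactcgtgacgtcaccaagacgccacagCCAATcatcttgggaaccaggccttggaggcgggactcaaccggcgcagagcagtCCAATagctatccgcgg
*Mcm6* (chr1:128359711-128359955, minus strand): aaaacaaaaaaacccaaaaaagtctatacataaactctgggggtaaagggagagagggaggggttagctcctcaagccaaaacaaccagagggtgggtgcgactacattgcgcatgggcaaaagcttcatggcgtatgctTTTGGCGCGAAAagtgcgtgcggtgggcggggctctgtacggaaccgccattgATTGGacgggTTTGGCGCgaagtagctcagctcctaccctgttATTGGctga
At least one of the E2F words was found in the 300-base window for 4 of 11 S phase and G1 genes (36.4%: *Mcm3*, *Mcm5*, *Mcm6* and *Mcm7*), 1 of 19 mitosis genes (5.26%, *Cdk1*) and 2.12% of all symbols. Replication genes are known targets of E2F factors, so matches in members chosen as such genes are no independent result.

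Of the 6 helicase genes none was a DEG on day 7, and their median log2 fold change was -0.10. *Mcm2*, on chr6:88883474-88898780 (minus strand), had 8.22, 9.90 and 15.9 CPM (lowest, median, highest) at baseline, 4.88, 8.35 and 11.7 CPM on day 7 and 6.90, 10.5 and 12.8 CPM on day 14. No day 7 mouse exceeded the baseline range. The log2 fold change of -0.40 ± 0.17 on day 7 did not pass (SE, edgeR adjusted *p* = 0.0960) and was the lowest of the 32 members. *Mcm5*, on chr8:75109569-75128439 (plus strand), had 2.15, 3.67 and 5.06 CPM at baseline, 0.934, 2.37 and 8.16 CPM on day 7 and 2.65, 3.97 and 5.15 CPM on day 14. Day 7 thus held both its lowest mouse (12) and its highest (10, lymphocyte-rich), and the fold change was -0.09 ± 0.37 (log2, SE, edgeR adjusted *p* = 0.895). This value turned on few mice: it was -0.52 without mouse 10, 0.04 without mouse 12 and -0.77 without the 4 lymphocyte-rich mice (edgeR adjusted *p* = 0.0687).

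*Pcna*, the replication clamp, lies on chr2:132249162-132253314 (minus strand) and had medians of 12.2, 11.7 and 11.4 CPM at baseline, day 7 and day 14, with day 7 mice from 7.89 to 17.1 CPM. Its log2 fold change on day 7 was 0.07 ± 0.14 with a 95% interval from -0.21 to 0.35. *Rrm2*, the regulated subunit of ribonucleotide reductase, lies on chr12:24708241-24714146 (plus strand). Its medians were 8.39, 8.49 and 8.17 CPM, with a day 7 range from 7.37 to 12.6 CPM. The log2 fold change was 0.08 ± 0.13 with an interval from -0.19 to 0.35. *Rrm1*, the other subunit, and *Tyms*, which makes thymidylate, had -0.06 ± 0.15 and 0.09 ± 0.15. For these 4 genes the upper limit of the interval under TMM was at most 0.41, which is below the 1.5-fold threshold of 0.585 on the log2 scale. The intervals do not cover the choice of scaling. Under total count scaling the median of the 10 S phase genes was 0.46, where that of all genes was 0.47. Pseudogenes named for *Pcna* and *Tyms* are annotated, as one is for *Ccnb2*, so reads shared with them are uncertain.

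At the G1 to S step *Ccnd1* (cyclin D1, chr7:144929931-144939925, minus strand) had 12.0, 15.4 and 22.1 CPM at baseline (lowest, median, highest), 15.1, 16.98 and 24.4 CPM on day 7 and 15.3, 21.6 and 24.4 CPM on day 14. The ranges overlapped, and the log2 fold changes of 0.17 ± 0.13 on day 7 and 0.27 ± 0.13 on day 14 did not pass (SE, edgeR adjusted *p* = 0.384 and 0.397). *E2f1*, on chr2:154559407-154569892 (minus strand), had medians of 2.53, 2.40 and 2.44 CPM, and no mouse of day 7 or day 14 exceeded the highest baseline mouse, at 4.07 CPM. Its day 7 log2 fold change was -0.07 ± 0.23 (SE, edgeR adjusted *p* = 0.869). Cyclin E2 (*Ccne2*) had 0.16 ± 0.31, and cyclin E1 (*Ccne1*), fitted without the filter, -0.07.

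Per kilobase of exon the 7 members with the highest baseline medians were S phase or G1 genes, and *Mki67* came next. At baseline the highest medians were 5.09 CPM per kb for *Pcna*, 3.27 for *Ccnd1* and 3.03 for *Rrm2*. The lowest were 0.121 for *Kif23*, 0.131 for *Bub1* and 0.151 for *Racgap1*. *Mki67* had a median of 1.28 CPM per kb at baseline, 3.33 on day 7 and 2.22 on day 14, whereas *Pcna* had 5.09, 4.89 and 4.73. The exons of 11 members overlap those of another annotated gene, among them *Ube2c* with *Tnnc2* on the other strand. The kit kept strand, but the strand setting of the counting was not given in the sources used here.

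On day 14 none of the 32 members was a DEG against baseline, where 0.787% of all genes were. None had an unadjusted *p* under 0.05, and DESeq2 called none of the 28 members to which it gave an adjusted *p*. The median log2 fold change was 0.08 for the mitosis genes and 0.05 for the S phase genes, and 10 of 19 mitosis genes were positive. The direction of the mitosis genes turned between alternatives: their median was -0.31 with the mapping rate as a covariate, -0.28 in females and 0.32 in males. Between day 7 and day 14 each of the 19 mitosis genes had a negative log2 fold change, with a median of -0.56, where 53.7% of all genes were negative. Here too the genes share the same mice and are not independent observations. In females 18 of 20 were negative (median -0.37), and without mouse 14 the count was 18 of 19. Without the lymphocyte-rich mice it was 16 of 17 (median -0.43). In the main fit no member was a DEG by edgeR, 5 had an unadjusted *p* under 0.05, all lower on day 14, and 0.377% of all genes were DEGs. DESeq2 called none of the 8 members to which it gave an adjusted *p*, and gave none to the other 24, *Ube2c* and *Ccnb1* among them. The largest of these differences was that of *Ube2c*, -1.49 ± 0.39 (SE, 7 against 8 mice, edgeR adjusted *p* = 0.0518). *Ccnb1* followed with -1.22 ± 0.35 (edgeR adjusted *p* = 0.0804). Both comparisons with day 7 use the same day 7 mice, so the higher values on day 7 against baseline and the lower values on day 14 against day 7 are not separate observations.

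The mice of one time point differed widely, and the same animals were high or low for many members. At baseline mouse 4 had the highest level of 16 of 19 mitosis genes. On day 7 mouse 14 had the highest level of 12 of them and mouse 12 the lowest of 15. On day 14 mouse 19 had the lowest level of 13. The median coefficient of variation between mice at baseline was 56.1% for the mitosis genes and 24.5% for the S phase genes, which had more reads per gene.

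At baseline mouse 4 was also the most frequent top mouse of the S phase genes, with 4 of 10. On day 7 lymphocyte-rich mouse 10 had the highest level of 8 of 10 S phase genes, and on day 14 lymphocyte-rich mouse 21 had that of 7 of 10. For the mitosis genes these counts were 4 of 19 and 3 of 19. As a description, the mean log2 CPM over the 10 S phase genes was 3.34 in mouse 10 and 3.00 in mouse 15, against 2.13 to 3.07 in the other 6 day 7 mice. In mouse 14, whose lymphocyte markers summed to 103 counts, the mean over the 19 mitosis genes was 2.36, above the 2.24 of mouse 10. The mean over the mitosis genes less that over the S phase genes, in which a library's scale factor largely cancels, ran from -2.37 to -1.18 (median -1.75) at baseline, from -1.68 to -0.56 (median -1.06) on day 7, and from -1.92 to -1.20 (median -1.72) on day 14. In this difference only mouse 12 (-1.68) and mouse 11 (-1.26) of the 8 day 7 mice lay inside the baseline range. The mean over the mitosis genes alone overlapped more between groups. It ran from 0.28 to 1.87 at baseline, 0.52 to 2.36 on day 7 and 0.51 to 1.48 on day 14. Only mice 10, 14 and 15 of day 7 exceeded mouse 4, the highest at baseline. The 19 genes included *Ube2c* and *Ccnb1*, which were tested mainly through the day 7 mice.

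**Figure D3:**
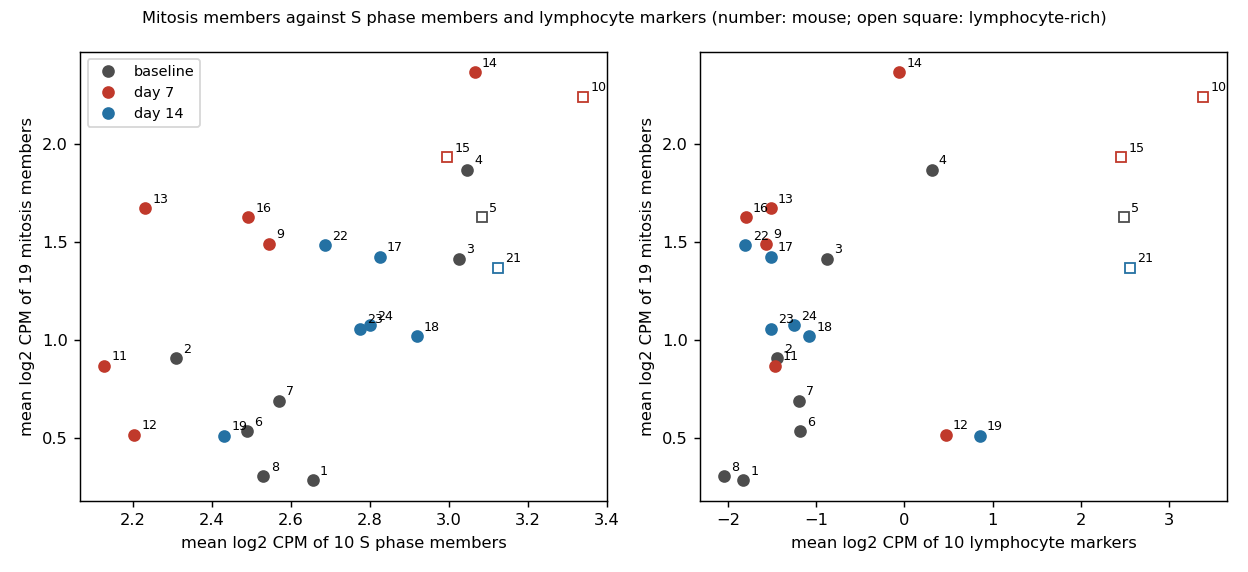
Each point is 1 mouse, numbered, by the mean log2 CPM of 19 mitosis members (vertical axis) against that of 10 S phase members (left) or 10 lymphocyte markers (right); colours are time points and open squares the lymphocyte-rich mice. Mouse 14 is highest for the mitosis members at 2.36, mouse 10 for the S phase members at 3.34, and 6 of 8 day 7 mice exceed every baseline mouse in the difference of the means. In the mitosis mean alone only mice 10, 14 and 15 of day 7 exceed every baseline mouse.

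Markers of other cells moved with time as well. The 10 macrophage markers summed to 56.7 to 212 CPM at baseline (median 89.2), 135 to 313 on day 7 (median 217) and 93.1 to 180 on day 14 (median 126), and 8 of 10 were DEGs that rose on day 7. The 6 fibroblast markers summed to 311 to 621 CPM at baseline and 588 to 1135 on day 7, and 6 of 6 rose. The 11 acinar markers had medians of 418128 CPM at baseline and 262779 on day 7, and 5 of 11 were DEGs that fell. The 10 lymphocyte markers ran from 0.174 to 66.2 CPM at baseline and 0.769 to 119 on day 7, with none of the 5 that were tested called, and no marker of these lists was at 0 in every mouse of a group. The part that these cells had in the mitosis values was not tested. Leaving out the 4 lymphocyte-rich mice, 17 mitosis genes could be tested, each with a positive log2 fold change on day 7 and with a median of 0.48, while the S phase median was -0.20 with 3 of 10 positive. None of the 30 members tested there was a DEG, where 4.64% of all genes were, and *Ccnb1* and *Kif23* had too few counts to be tested. With the lymphocyte marker level as a covariate in all 23 mice instead, *Ccnb1* and *Ube2c* were still DEGs (0.92 and 1.11 on the log2 scale, edgeR adjusted *p* = 0.0479 and 0.0179), *Top2a* was not (0.70, edgeR adjusted *p* = 0.0599), and the mitosis median was 0.51.

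Across mice the level of *Mki67* was set against the mean log2 CPM of the marker lists in a family of 10 relations. With the macrophage markers it had Pearson's r of 0.62 (permutation *p* = 0.0016, adjusted *p* = 0.0114) and Spearman's rho of 0.59 (permutation *p* = 0.0038, adjusted *p* = 0.0152) over all 23 mice, and r of 0.53 without mice 8 and 15. Permutations over mice of several time points took no account of the time point. Both levels had their highest median on day 7, so these pooled values include that shared shift. Within baseline r was 0.91 (n = 8, exact permutation *p* = 0.00228, adjusted *p* = 0.0114) and rho 0.95 (exact permutation *p* = 0.00114, adjusted *p* = 0.0114), and r was 0.96 without mice 4 and 5. Within day 7 r was 0.49 (n = 8, exact permutation *p* = 0.223, adjusted *p* = 0.327) with rho of 0.57 (exact permutation *p* = 0.151), and r was 0.27 without mice 9 and 11. Within day 14 it was -0.57 (n = 7, exact permutation *p* = 0.229, adjusted *p* = 0.327) with rho of -0.75 (exact permutation *p* = 0.0663), and r was -0.99 without mice 21 and 22. The relation passed at baseline and not within either later time point, and the difference between time points was not tested. The 4 lymphocyte-rich mice form a cluster of their own on the lymphocyte axis. Over the other 19 mice *Mki67* and the lymphocyte markers gave r of -0.04 (permutation *p* = 0.866) and rho of -0.05 (permutation *p* = 0.831), but r of 0.50 without mice 12 and 19, so that the value rests on those mice. Within baseline, where mouse 5 is the lymphocyte-rich one, r was 0.73 (n = 8, exact permutation *p* = 0.0431, adjusted *p* = 0.108) and rho 0.90 (exact permutation *p* = 0.00456, adjusted *p* = 0.0152), and r was 0.84 without mice 4 and 5. The other lymphocyte relations did not pass. Over all 23 mice r was 0.29 (permutation *p* = 0.183) and rho 0.19. For day 7 alone r was 0.23 (exact permutation *p* = 0.631), and -0.23 without mice 10 and 15. For day 14 alone r was -0.38 (exact permutation *p* = 0.387) and rho -0.68 (exact permutation *p* = 0.11).

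Males and females were compared across the time points. No member was a DEG between the sexes by edgeR or DESeq2, none had an unadjusted *p* under 0.05, and 0.23% of all genes were called. On day 7 the 4 males had *Mki67* levels of 33.5 to 56.7 CPM, above the 8.17 to 23.8 CPM of the 4 baseline males. The 4 females of day 7 ran from 9.13 to 41.5 CPM and overlapped the baseline females, at 10.6 to 33.4 CPM. Fitted in males alone, 6 members were DEGs on day 7 (*Ccna2*, *Ccnb1*, *Cenpe*, *Mki67*, *Top2a* and *Ube2c*), with 1.47 ± 0.30 for *Mki67* (log2, SE, edgeR adjusted *p* = 0.0167), where 3.72% of all genes were. In females alone none was, with 0.10 ± 0.58 for *Mki67* (edgeR adjusted *p* = 0.948), where 1.9% were. The difference between the sexes in this change was itself 1.41 ± 0.66 for *Mki67* (log2, SE, edgeR adjusted *p* = 0.914). No member of 37 had an adjusted *p* of at most 0.05 for such a difference by edgeR or DESeq2 on day 7, where 2 had an unadjusted *p* under 0.05 and 0.00773% of all genes passed. On day 14 none had an unadjusted *p* under 0.05 and 0% of all genes passed. The male less female difference of the day 7 change was positive for 35 of 37 members, where 47.5% of all genes were positive, and that of day 14 for 31 of 37 (49.4% of all genes). These members share the same mice, so that the counts are not independent observations. The median of the tested mitosis genes on day 7 was 1.13 in males and 0.22 in females.

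The wider cell cycle was read from 99 further genes in 4 lists, of which 78 were tested. On day 7, 5 of 78 were DEGs, a share near the 5.13% of all genes, and all rose. Of 23 further mitosis genes tested 22 had a positive log2 fold change, where 53.7% of all genes did. Their median was 0.51, and 2 were DEGs. They were measured in the same mice as the members, and the lists were chosen with earlier results known. These counts are therefore no independent result. *Nek2*, a kinase that splits the centrosomes, had medians of 1.19, 2.68 and 0.869 CPM at baseline, day 7 and day 14, and rose by 1.17 ± 0.40 on day 7 (log2, SE, edgeR adjusted *p* = 0.0397), with 6 of 8 mice above the baseline range. *Spc25*, a part of the kinetochore's Ndc80 complex, had medians of 1.53, 2.78 and 2.34 CPM and rose by 0.79 ± 0.28 (edgeR adjusted *p* = 0.0471). Neither was a DEG without the lymphocyte-rich mice (edgeR adjusted *p* = 0.0872 and 0.0712). Of 29 further replication genes tested none was a DEG and the median was 0.08.

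Cell cycle inhibitors held the 3 other DEGs of day 7 among 14 tested. All 3 rose, where 3.82% of all genes were DEGs that rose. The list did not move as a whole: 9 of 14 were higher and 5 lower. Its median log2 fold change was 0.12 and its lowest -0.33. *Cdkn1c*, which encodes the Cdk inhibitor p57, had 1.48, 2.01 and 3.24 CPM at baseline (lowest, median, highest), 3.67, 4.85 and 9.004 CPM on day 7 and 2.25, 4.03 and 7.15 CPM on day 14. All 8 day 7 mice and 6 of 7 day 14 mice stood above every baseline mouse. It rose by 1.32 ± 0.22 on day 7 and by 1.02 ± 0.23 on day 14 (log2, SE, edgeR adjusted *p* = 0.000164 and 0.0181). *Cdkn2c*, which encodes p18, an inhibitor of Cdk4 and Cdk6, had 1.23, 1.98 and 3.80 CPM at baseline, 3.94, 5.16 and 6.22 CPM on day 7 and 2.51, 3.09 and 4.70 CPM on day 14. Again all 8 day 7 mice lay above the baseline range, and the gene rose by 1.17 ± 0.19 (edgeR adjusted *p* = 9.88e-05). This call was lost in females alone and with the mapping rate as a covariate. *Ccng2*, an atypical cyclin that slows the cycle, rose by 0.64 ± 0.19 on day 7 (edgeR adjusted *p* = 0.0208). It was highest in mouse 10 at 11.3 CPM, and without the lymphocyte-rich mice its value was 0.50, under the fold threshold.

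Below the fold threshold, and named after their values were seen, *Cdk4*, the partner of D-type cyclins, was higher on day 7 by 0.32 ± 0.06 (log2, SE, edgeR adjusted *p* = 0.000185), with 8 of 8 mice above the baseline range. *Cdkn1b* (p27) was higher by 0.40 ± 0.10, and *Orc3* and *Orc5*, parts of the complex that marks replication origins, by 0.27 ± 0.07 and 0.34 ± 0.10. *Ccnd3* and *Cdc25a* were lower, at -0.25 ± 0.07 and -0.31 ± 0.08. On day 14 *Cdkn1c* was the only DEG of the 78, where 0.787% of all genes were DEGs.

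**Figure D4:**
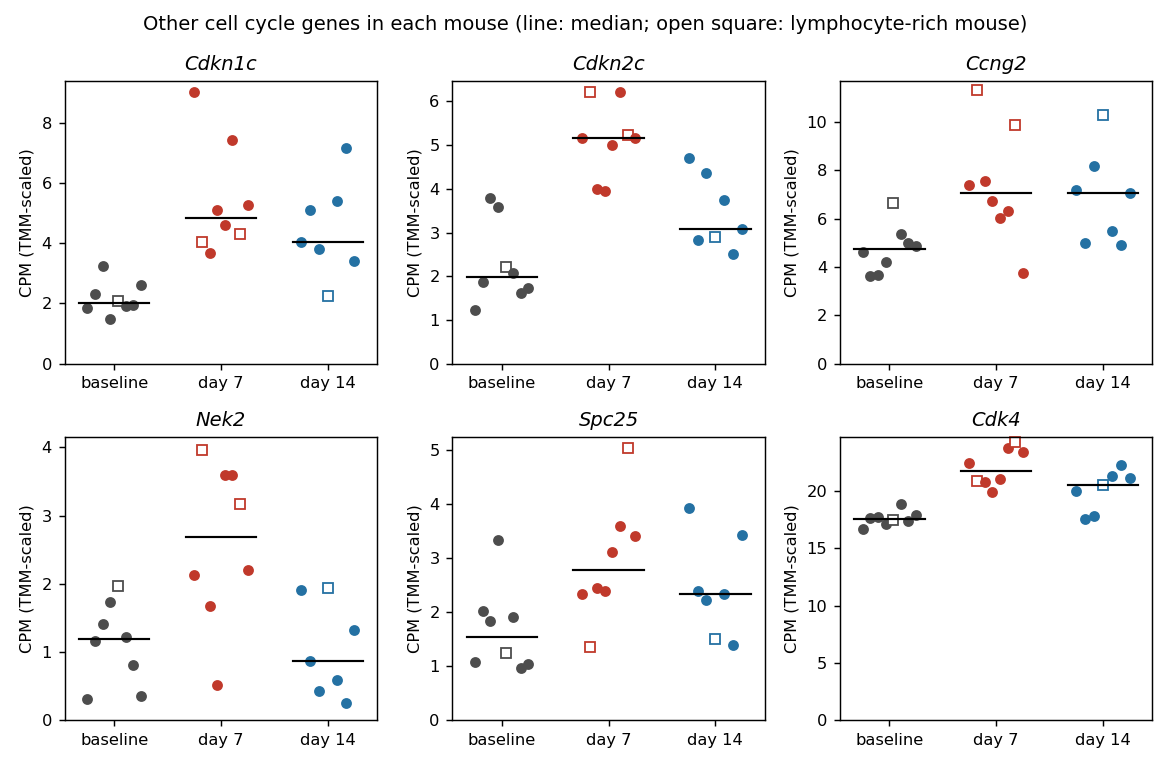
TMM-scaled CPM (vertical axis, linear, from 0) of 6 further cell cycle genes in each mouse, ordered by mouse number within baseline, day 7 and day 14; the line is the median and open squares are the 4 lymphocyte-rich mice. For *Cdkn1c*, *Cdkn2c* and *Cdk4* all 8 day 7 mice lie above every baseline mouse, and for *Nek2* 6 of 8.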

How the data were processed

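RNA of pancreas head from 23 mice was sequenced from ribosome-depleted, stranded libraries. Per the labels and the study's methods, the authors trimmed reads (Trim Galore, cutadapt), aligned them to mm10 with STAR 2.5.2a and counted unique fragments per gene with featureCounts. The deposited values are raw counts per gene symbol, 1 table a mouse. A female mouse of day 14 that the authors omitted was not analysed here. Here, edgeR 4.0.16 (filterByExpr, TMM, quasi-likelihood test with robust fit, ~ time + sex, all 23 mice) tested 12195 of 18512 symbols, and SEs were taken as the fold change over the root of F. DEG thresholds (adjusted p at most 0.05, fold at least 1.5) follow the study, which used DESeq2; DESeq2 1.42.0 is an alternative here. Log2 CPM used a prior count of 2. Positions and exon lengths came from GENCODE vM21 (GRCm38). The fit was run on simulated counts, with genes drawn independently and changes set only in genes with a mean count of at least 20. Of the 32 tested members 14 had a median count under 20, so it says little of the scarce ones.

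Members and lists were chosen with earlier results of these data known. Named in full were members with an adjusted p of at most 0.05 in a time comparison plus *Mki67*, *Top2a*, *Cdk1*, *Ccnb1*, *Mcm2*, *Mcm5*, *Pcna*, *Rrm2*, *Ccnd1* and *E2f1*, and DEGs of the other cell cycle lists. Of 4 neutrophil markers none was tested, of 6 duct markers 2 rose, of 6 islet markers 4 rose and of 6 endothelium markers 1 fell on day 7. Groups were taken from the labels, each mouse is 1 sample, and intervals cover the spread between these mice. Limits from 3 counts cover counting error only. Alternatives were other scalings, filters, covariates, sample sets and leaving out each mouse.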

Additional observations from a re-analysis of the deposited data

Results flagged for a closer look

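Within each time point the lowest or highest log2 CPM of each tested member was compared with its nearest neighbour by Dixon's ratio, in 96 groups of mice, of which 6 stood apart; chance alone sets about 1 in 20 groups apart. Mouse 19 of day 14 was low for 4 members: *Tpx2* at -0.21 (6 counts, nearest mouse 0.81), *Mki67* at 3.09 (78 counts, nearest 4.14), *Mcm2* at 2.83 (65 counts, nearest 3.38) and *Mcm6* at 2.41 (48 counts, nearest 3.15). On day 7, mouse 12 was low for *Ube2c* at -0.63 (4 counts, nearest 0.54). Also on day 7, mouse 14 was high for *E2f1* at 2.00 (43 counts, nearest 1.52).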

How the results depend on the processing

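The 3 DEGs of day 7 were close to the threshold. With each mouse left out in turn, 0 to 6 members were DEGs on day 7, 0 on day 14 and 0 to 1 for day 14 against day 7; the count fell to 0 without mouse 1, 2, 7, 8, 10, 14 or 15, to 1 without 6, 13 or 16, and rose to 5 without 11 and 6 without 4 or 12. For day 14 against day 7 it was 1 without mouse 4, 5, 8, 11, 12 or 17. With each mouse left out, the day 7 share of all genes that were DEGs ran from 4.21% (without mouse 15) to 6.72% (without mouse 5). The day 7 count of members was 17 under total count scaling, where 30.3% of all genes were DEGs, and 0 without the filter (3.49%). It was 1 with at least 10 counts in every mouse (12 members tested, 3.54% of all genes) and 0 with the mapping rate as a covariate (0.861%). In females it was 0 (1.9%), in males 6 (3.72%) and with only the compared mice 1 (4.48%). After seeing the data, leaving out the lymphocyte-rich mice was added and gave 0 (4.64% of all genes). The lymphocyte marker level as a covariate was also added then and gave 2 (5.36%). For day 14 against day 7 the count was 5 under total count scaling (3.88% of all genes) and 1 when totals left out the top 20 genes (0.361%). It was 1 with only the compared mice (0.374%) and 2 with the lymphocyte covariate (0.836%). The median over members on day 7, 0.45, was 0.91 under total count scaling, which moved the median of all genes to 0.47, so that the mitosis genes lay 0.66 above it against 0.64 under TMM. The mapping rate was lower in most baseline libraries than in the others and cannot be told apart from time; with it as a covariate 14 of 19 mitosis genes were positive on day 7 (median 0.23) and the S phase median was -0.45. In females 15 of 20 were positive (median 0.22). In the other alternatives run, each tested mitosis gene was positive on day 7. Across the 19 mice that were not lymphocyte-rich, r of *Mki67* with the lymphocyte markers, -0.04, was 0.0023 with a prior count of 0.5 and 0.083 under total count scaling, and with the macrophage markers, 0.54, it was 0.67 and passed under total count scaling. Among single genes, no called value changed sign. No paired analysis was possible because mouse numbers are not shared between the groups. Most mitosis genes had under 50 counts a mouse, which limits their precision.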
